A study of Mus musculus with 36 samples.

Results

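The genes described here code for the proteins of the mitochondrial ribosome. Members are all protein-coding genes of the mouse count table whose official symbol is Mrpl or Mrps followed by a number, with pseudogenes left out. The rule used no measured value, but the set was chosen with earlier results of these data known. It found 78 members among 49671 genes, of which 49 are Mrpl genes, named for the large subunit, and 29 are Mrps genes, named for the small subunit. They lie on 17 chromosomes, and 77 passed the filter on low counts. Symbols are not a perfect guide to place: the proteins of Mrps30 and Mrps18a sit in the large subunit, and Mrps36 is now assigned to the oxoglutarate dehydrogenase complex.

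The mitochondrial ribosome translates the few membrane proteins that mitochondrial DNA encodes, which are core subunits of the respiratory chain and of ATP synthase. Its rRNAs are made in the mitochondrion, whereas its proteins are encoded in the nucleus, made in the cytosol and imported. Some of these proteins descend from bacterial ribosomal proteins and others are found only in mitochondria. Early embryonic and pluripotent cells change their use of respiration as they leave the naive state.

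RNA was sequenced from 36 libraries of mouse pluripotent stem cells of 3 lines that carry conditional alleles, named Bod1L, Setd1a and Mll2 (the gene Kmt2b). SETD1A and MLL2 are histone H3 lysine methyltransferases, and BOD1L is a partner of the SETD1A complex. Each line was sampled as knockout (KO, after tamoxifen) and as wild type (WT) in 3 media, with 2 libraries labelled as biological replicates in each of the 18 groups. The 2i medium (LIF with the inhibitors PD0325901 and CT99021) kept naive embryonic stem cells, the FCS medium held LIF and serum, and the EpiSC medium (Activin A and FGF2) kept epiblast-like stem cells. Tamoxifen is named for knockout cells only, so that treatment and genotype cannot be told apart. Each line is 1 line, and the labels do not say whether its replicates are separate cultures or separate clones. The tests measure the spread between libraries labelled as replicates.

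Each library held between 24490158 and 40591108 gene counts. Bod1l, the targeted gene of the Bod1L line, was at 33.6 to 62.2 CPM (the count scaled to library size) in its 6 knockout libraries and at 166 CPM or more in the other libraries. Counts over the whole gene did not mark the other knockouts: Setd1a was at 37.3 to 43.8 CPM in Setd1a knockout and 40.9 to 58.8 in wild-type libraries of that line (log2 fold change -0.38 ± 0.14 SE, edgeR adjusted p = 0.0957), and Kmt2b was at 113 to 145 against 89.6 to 210 CPM in the Mll2 line. The deleted part of each allele is not given in the sources used here, so these whole-gene counts check neither label. Naive pluripotency markers summed to 3281 to 4870 CPM in 2i and 69.8 to 855 CPM in EpiSC medium. Formative and primed markers had a median of 183 CPM in 2i, 695 in FCS and 549 in EpiSC medium (152.6 to 1605, overlapping the 103 to 285 CPM of 2i), and general pluripotency markers 1271, 1624 and 706 CPM. The library Mll2 wild type 2i replicate 2 stood apart, with a summed member level of 5805 CPM against 3160 CPM in replicate 1, and values without it are given for the Mll2 and media results that it moved most. All 12 EpiSC libraries and Setd1a knockout 2i replicate 1 carry later library numbers than the other 23. Summed levels of 8 fibroblast markers, as from feeder cells, were 95.1 to 6778 CPM in EpiSC libraries and 3.09 to 18.1 CPM in 2i.

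Levels differed widely between members. Per kilobase of exon, the median tested member had 19.3 CPM per kb over the 36 libraries. Mrpl12, the stalk protein to which translation factors bind, was the highest at 58.8 ± 27.4 CPM per kb (SD, n = 36). Mrps16, a bacterial-type protein of the small subunit, followed at 50.6 ± 20.4, and Mrpl42, found only in mitochondria, at 47.3 ± 19.6 CPM per kb. These SDs are over libraries of all lines, genotypes and media, and the 3 genes were not tested against each other. The lowest tested members were Mrpl23 at 0.955 ± 0.317 and Mrpl48 at 1.59 ± 0.397 CPM per kb. This order depends on the exon length of the gene model as well as on counts. That length was 566 bases for Mrps16, 4883 for Mrpl23 and 8152 for Mrpl48. Mrpl53 was at 0 to 0.178 CPM in every library and was not tested. Of its exon bases, 88.0% lie in the gene model Gm42688 on the same strand, so reads from the pair cannot be told apart. In all, 8 members shared some exon bases with another gene on their strand, and Mrpl53 is among the 3 that shared over 20%. The coefficient of variation over all libraries had a median of 32.0% and ran from 14.9% for Mrpl3 to 71.2% for Mrps24.

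Loss of Setd1a lowered a large share of the members. Averaged over the 3 media, 28 of 77 tested members (36.4%) fell and none rose, whereas 5.57% of all 23501 tested genes fell and 3.29% rose (edgeR quasi-likelihood test, Benjamini-Hochberg adjusted p below 0.05, the rule for every call here). The median log2 fold change of members was -0.34, and that of all genes was 0.07. In bulk RNA, fewer cells of a type and less RNA per cell cannot be told apart. Without Setd1a knockout FCS replicate 2 the count was 18. Averaged over 2i and FCS only, media in which fibroblast marker sums did not pass 253 CPM, 15 members fell, against 2.84% of all genes.

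Mrpl11, which forms the base of the stalk where translation factors dock, had the lowest fold change. In wild-type cells of the Setd1a line it was at 45.5 and 42.2 CPM (2i), 63.4 and 49.6 CPM (FCS) and 43.0 and 62.4 CPM (EpiSC medium). Knockout libraries had 6.82 and 6.95 CPM (2i), 16.5 and 10.5 CPM (FCS) and 7.36 and 9.22 CPM (EpiSC medium). Every knockout library lay far below every wild-type library, and knockout cells kept 18.1% of the wild-type level (log2 fold change -2.47 ± 0.20 SE, edgeR adjusted p = 1.78e-08). Mrpl2, a core protein next to the catalytic centre, had values of 45.1 to 66.2 CPM in wild-type libraries (median 56.2, n = 6) and 12.0 to 26.3 CPM in knockout libraries (median 14.8, n = 6). The groups did not overlap, and the log2 fold change was -1.89 ± 0.23 (edgeR adjusted p = 4.68e-06). Mrpl24, an early assembly protein near the exit of the nascent chain, had 78.8 to 117 CPM (median 89.7) in wild-type and 27.9 to 37.6 CPM (median 32.0) in knockout libraries. It fell by 1.53 ± 0.13 on the log2 scale (edgeR adjusted p = 1.78e-08), with the smallest SE among the genes of this paragraph. Mrpl36, a very small zinc-binding protein added late in assembly, had 21.6 to 27.5 CPM (median 23.9) in wild-type and 8.22 to 16.6 CPM (median 8.69) in knockout libraries, again with no overlap. Its log2 fold change was -1.28 ± 0.20 (edgeR adjusted p = 1.22e-04).

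**Figure D1:**
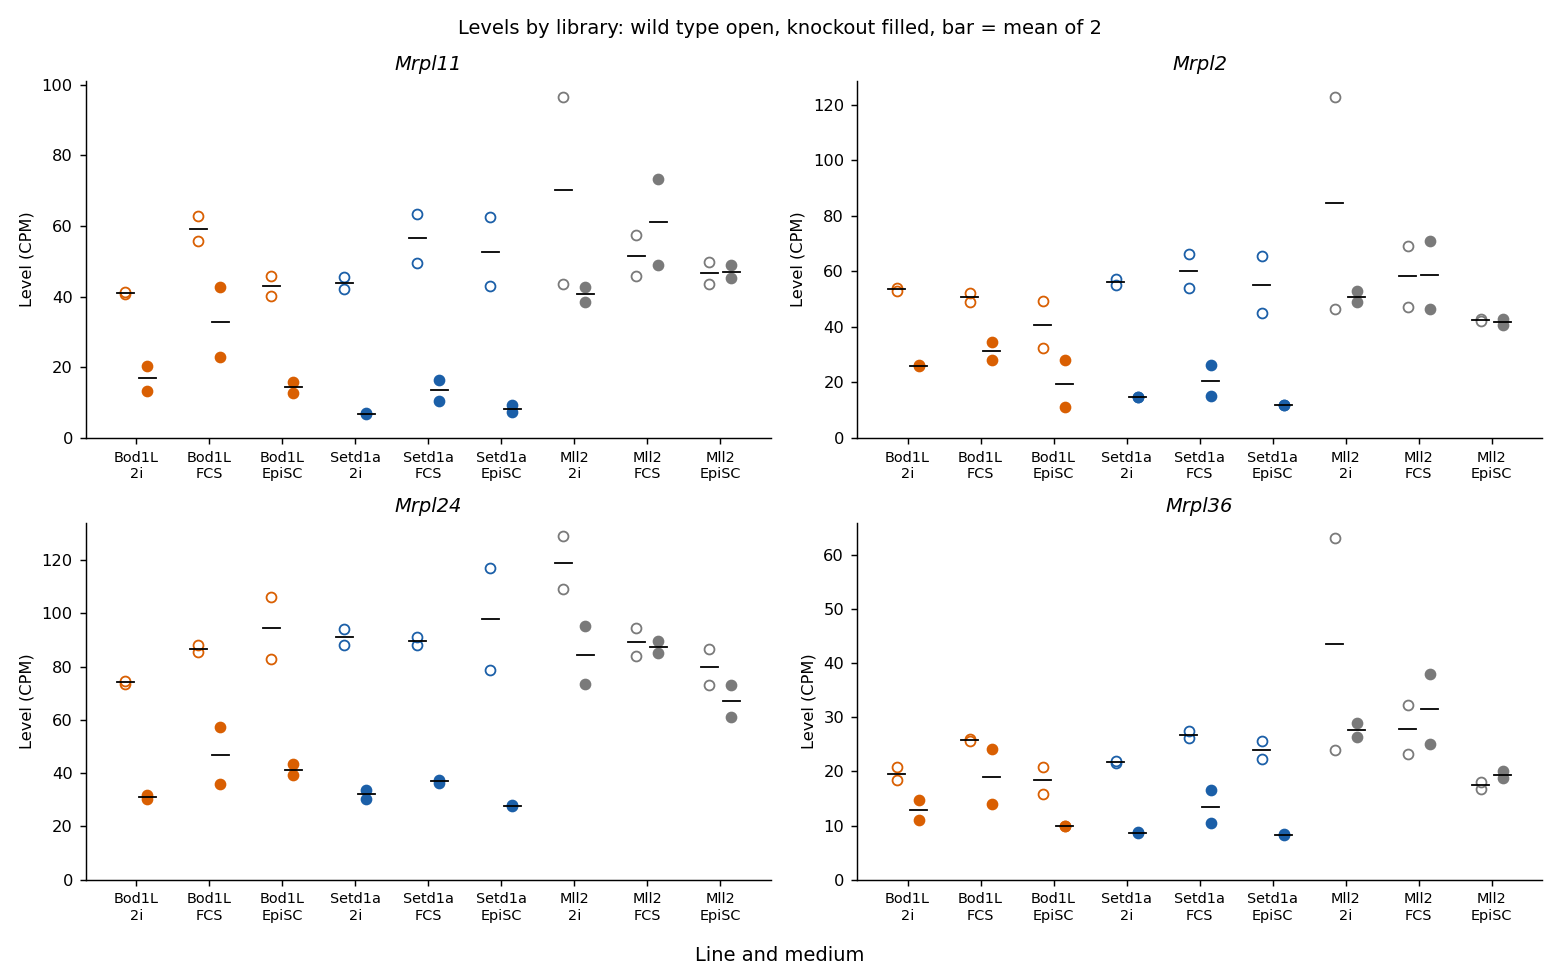
CPM (linear axis from 0) of Mrpl11, Mrpl2, Mrpl24 and Mrpl36 in each of the 36 libraries, by line and medium, with 1 point per library (wild type open, knockout filled) and a bar at the mean of 2. In the Setd1a line all 6 knockout points lie below all 6 wild-type points for each gene, and in the Mll2 line the points overlap, with Mll2 wild type 2i replicate 2 the highest point for all 4 genes.

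The sequences before the start sites of these 4 genes, the members with the lowest fold changes, are shown because the genes moved together in the Setd1a line. They are the 250 bases upstream of the RefSeq start site on GRCm38.p6, read 5′ to 3′ on the gene's strand, with matches to the motifs listed further on in capitals. Mrpl11 (ENSMUSG00000024902) starts on the plus strand of chromosome 19, and the stretch is chr19:4962056-4962305.
Mrpl11: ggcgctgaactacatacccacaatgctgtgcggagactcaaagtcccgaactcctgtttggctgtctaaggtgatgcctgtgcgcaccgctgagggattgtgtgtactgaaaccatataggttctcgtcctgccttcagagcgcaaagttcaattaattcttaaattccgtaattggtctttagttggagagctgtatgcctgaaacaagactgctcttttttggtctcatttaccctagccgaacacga
Mrpl2 (ENSMUSG00000002767) is on the plus strand of chromosome 17, the stretch is chr17:46645971-46646220, and the capitals are an E-box (CACGTG). RefSeq gives 3 start sites for it, and the stretch belongs to the one listed at the top.
Mrpl2: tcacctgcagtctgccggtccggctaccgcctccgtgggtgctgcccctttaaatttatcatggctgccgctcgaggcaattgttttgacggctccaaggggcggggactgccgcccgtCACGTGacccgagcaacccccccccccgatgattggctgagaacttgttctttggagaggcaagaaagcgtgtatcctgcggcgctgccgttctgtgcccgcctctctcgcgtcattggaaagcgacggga
Mrpl24 (ENSMUSG00000019710) is on the plus strand of chromosome 3, at chr3:87919294-87919543.
Mrpl24: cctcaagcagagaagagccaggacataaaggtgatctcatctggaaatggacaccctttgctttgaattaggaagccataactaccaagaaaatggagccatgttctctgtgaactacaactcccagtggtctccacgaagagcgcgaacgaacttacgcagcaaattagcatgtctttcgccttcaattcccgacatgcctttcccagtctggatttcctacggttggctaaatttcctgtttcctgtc
Mrpl36 (ENSMUSG00000021607) is on the plus strand of chromosome 13, at chr13:73330759-73331008. Its capitals are an E-box and, on the opposite strand, a match to AAGATGGC, the core of the motif bound by YY1.
Mrpl36: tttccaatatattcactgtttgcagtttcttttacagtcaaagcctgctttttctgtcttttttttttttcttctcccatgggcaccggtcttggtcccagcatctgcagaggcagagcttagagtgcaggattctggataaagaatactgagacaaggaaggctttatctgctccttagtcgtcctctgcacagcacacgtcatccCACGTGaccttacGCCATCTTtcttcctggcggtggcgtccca

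The other named members that fell with Setd1a loss came from both subunits. Among large-subunit proteins found only in mitochondria, Mrpl42 fell from a wild-type median of 37.1 CPM (28.2 to 51.2, n = 6) to 16.8 CPM (8.66 to 21.7, n = 6), a log2 fold change of -1.26 ± 0.17 (edgeR adjusted p = 3.17e-05). Mrpl41 fell by 1.14 ± 0.20, Mrpl38, of the central protuberance, by 0.97 ± 0.16, Mrpl51 by 0.97 ± 0.18 and Mrpl57 by 0.96 ± 0.25 on the log2 scale. Mrpl10, which anchors the stalk, fell by 1.02 ± 0.15. In the small subunit, Mrps14 and Mrps10, both proteins of its head, fell by 1.12 ± 0.18 and 0.99 ± 0.14. These 8 had edgeR adjusted p from 3.03e-05 to 0.0147. Of the 12 members named for Setd1a loss, only Mrpl57 lost its call when a library was left out. Its adjusted p was 0.0515 without knockout 2i replicate 1, 0.0517 without wild type 2i replicate 2, 0.0626 without knockout FCS replicate 2, 0.0567 without wild type FCS replicate 2 and 0.0650 without wild type EpiSC replicate 2. In the average of 2i and FCS only it was at -0.68 (0.279), while the other 11 kept their calls. The remaining 16 called members had log2 fold changes of -0.92 (Mrps27) and nearer to 0. The highest fold changes were those of Mrps6 at 0.23 ± 0.18 and Mrps11 at 0.22 ± 0.16, neither called.

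**Figure D2:**
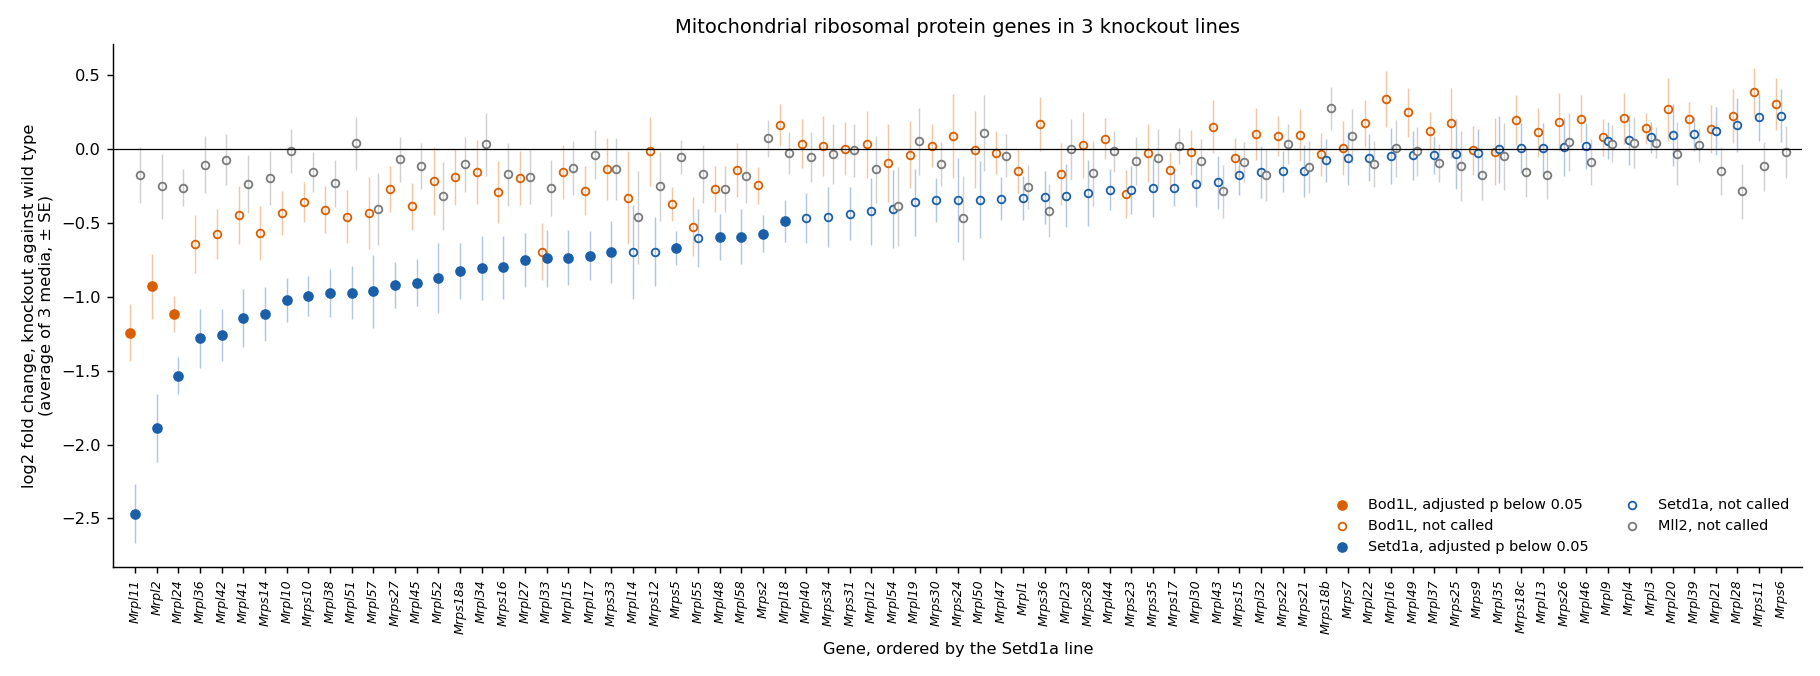
Log2 fold change of knockout against wild type, averaged over the 3 media, for each of the 77 tested members in the Bod1L, Setd1a and Mll2 lines, with bars of 1 SE and called members marked. Called points are all below 0: 28 in the Setd1a line, 3 in the Bod1L line and none in the Mll2 line.

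Taking the media singly, with 2 libraries a group, fewer members passed in the Setd1a line. In 2i 8 members fell (Mrpl11, Mrpl2, Mrpl24, Mrpl41, Mrpl36, Mrpl38, Mrps10 and Mrpl10, against 1.44% of all genes), in FCS 2 (Mrpl11 and Mrpl24, against 0.74%) and in EpiSC medium 9 (Mrpl11, Mrpl2, Mrpl24, Mrpl36, Mrps14, Mrpl42, Mrps27, Mrpl10 and Mrps5, against 1.4%). None rose in any medium. With replicate numbers as a block these counts were 22, 9 and 28. All shares of all genes printed here are from the fit without the block and with all libraries. None is given for DESeq2, for fits with the block or with a library left out, or at an unadjusted p below 0.05. Those counts are not set against one. Mrpl11 had log2 fold changes of -2.67 ± 0.35 (2i), -2.07 ± 0.34 (FCS) and -2.67 ± 0.35 (EpiSC medium), with edgeR adjusted p of 1.15e-04, 2.15e-03 and 1.25e-04. Those of Mrpl24 were -1.51 ± 0.22, -1.28 ± 0.21 and -1.81 ± 0.22 (2.89e-04, 2.51e-03 and 5.25e-05). Single libraries moved these counts. In 2i the count was 2 without knockout replicate 1 (the library with a later number), knockout replicate 2 or wild type replicate 1, and 3 without wild type replicate 2. Without any 1 of these 4 libraries, adjusted p was 0.0564 to 0.159 for Mrpl2, 0.163 to 0.363 for Mrpl41, 0.239 to 0.368 for Mrpl36 and 0.0953 to 0.179 for Mrpl38. In FCS it was 1 without knockout replicate 1 (Mrpl24 at 0.0788) and 0 without knockout replicate 2, where Mrpl11 had an adjusted p of 0.118 and Mrpl24 of 0.0761. In EpiSC medium it was 2 without knockout replicate 1 or wild type replicate 2, where Mrpl2 (0.0742 and 0.0596), Mrpl36 (0.206 and 0.185), Mrps14 (0.289 and 0.355) and Mrpl42 (0.289 and 0.125) lost their calls. Mrpl36 also lost its call without knockout replicate 2 (0.0890). In 2i and EpiSC medium Mrpl11 and Mrpl24 kept their calls without each library. Fibroblast marker sums in EpiSC medium were 4011 and 175 CPM in the knockout and 1094 and 158 CPM in the wild-type libraries of this line, and their part in the EpiSC counts was not tested. The effect of Setd1a loss did not pass a test of difference between media for any member (0% of all genes by edgeR), with 1 at an unadjusted p below 0.05 (Mrpl12) and 0 by DESeq2. Both knockout libraries lay below both wild-type libraries in each of the 3 media for 26 members, against 6.04% of all genes, and above them for none (4.67% of all genes).

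Loss of Bod1L lowered fewer members. Averaged over media, Mrpl11, Mrpl24 and Mrpl2 fell and none rose (3 of 77, 3.90%), against 1.92% of all genes, and the median over members was -0.02. In wild-type cells Mrpl11 had 40.8 and 41.4 CPM (2i), 55.7 and 62.8 CPM (FCS) and 40.2 and 45.9 CPM (EpiSC medium). In knockout cells it had 20.4 and 13.3, 22.9 and 42.7, and 15.9 and 12.7 CPM. Knockout lay below wild type within each medium, although the knockout FCS replicate 2 value exceeded some wild-type values in other media, and knockout cells kept 42.3% (log2 fold change -1.24 ± 0.19, edgeR adjusted p = 2.93e-04). Mrpl24 had 73.6 to 106 CPM (median 84.2) in wild-type and 30.2 to 57.4 CPM (median 37.5) in knockout libraries, with no overlap (-1.12 ± 0.12, edgeR adjusted p = 5.01e-06). Mrpl2 had 32.3 to 54.2 CPM (median 50.8) in wild-type and 11.1 to 34.6 CPM (median 27.2) in knockout libraries, which overlapped, and fell by 0.93 ± 0.22 on the log2 scale (edgeR adjusted p = 0.0222).

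The Mrpl2 call in the Bod1L line was not stable to leaving out libraries. Its adjusted p was 0.0622 and 0.0753 without knockout 2i replicates 1 and 2, 0.0611 without wild type 2i replicate 1, 0.0805 without knockout FCS replicate 1, 0.0551 without wild type FCS replicate 2, 0.0981 without wild type EpiSC replicate 1 and 0.0899 without knockout EpiSC replicate 2. It was 0.186 in the average of 2i and FCS only, whereas Mrpl11 (0.0167) and Mrpl24 (2.31e-04) held there. Without knockout FCS replicate 2, which had a summed member level of 4391 CPM against 3026 CPM in replicate 1, 5 members were called. The share of all genes called in that fit, or with the replicate block, is not given here. With the block 11 members fell: the 3 above and Mrpl10, Mrpl33, Mrpl36, Mrpl42, Mrpl51, Mrps10, Mrps14 and Mrps5. Their values in the fit without the block included -0.64 ± 0.20 for Mrpl36 (edgeR adjusted p = 0.120) and -0.57 ± 0.18 for Mrps14 (0.158). Mrps11 had the highest fold change at 0.39 ± 0.16 (edgeR adjusted p = 0.446).

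By medium, Mrpl24 fell with Bod1L loss in 2i (-1.25 ± 0.22, edgeR adjusted p = 6.76e-03, against 0.366% of all genes that fell), and Mrpl24 (-1.20 ± 0.21, 7.91e-03) and Mrpl11 (-1.59 ± 0.34, 0.0306) fell in EpiSC medium, against 0.43%. No member passed in FCS, against 0.191% of all genes, with 6 at an unadjusted p below 0.05 and 1 called by DESeq2. With the block the counts were 2, 1 and 4. The Mrpl24 call in 2i was lost without knockout replicate 1 (adjusted p 0.0571), knockout replicate 2 (0.346) or wild type replicate 1 (0.0982). In EpiSC medium the Mrpl11 call was lost without any of the 4 libraries (adjusted p of 0.108 to 0.528, the highest when knockout replicate 2 was left out), and the Mrpl24 call without knockout replicate 1 (0.0675), knockout replicate 2 (0.242) or wild type replicate 2 (0.130). Fibroblast marker sums in these EpiSC libraries were 5272 and 1205 CPM in knockout and 6778 and 1115 CPM in wild type, and their part was not tested. The Bod1L effect did not pass a test of difference between media for any member (0% of all genes, 0 at an unadjusted p below 0.05, 0 by DESeq2). In each of the 3 media both knockout libraries lay below both wild-type libraries for 7 members, against 2.81% of all genes: Mrpl11, Mrpl2, Mrpl24, Mrpl33, Mrpl36, Mrpl45 and Mrps14.

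With Mll2 loss no member passed the test in any medium or on average, against 0.464% of all genes in 2i, 0% in FCS and EpiSC medium and 0.694% on average. DESeq2 also called 0, and 2 members had an unadjusted p below 0.05 on average. The median over members was -0.10 (0.08 without wild type 2i replicate 2), and the extremes were Mrps24 at -0.47 ± 0.29 (edgeR adjusted p = 0.753) and Mrps18b at 0.28 ± 0.15 (0.661). In 2i the median was -0.51, with 75 of 77 members below 0 and 23 at an unadjusted p below 0.05. That pattern rested on wild type replicate 2. Without it the 2i median was 0.04, and Mrps24 on average was at 0.11. Without wild type replicate 1, which leaves the high library alone as control, 22 members were called in 2i, 1 on average and 1 in the test between media. In the library wild type 2i replicate 2 the 79 cytosolic ribosomal protein genes also summed to 52011 CPM against 22230 CPM in replicate 1. The effect did not pass a test of difference between media for any member (0.00426% of all genes, 3 at an unadjusted p below 0.05, 0 by DESeq2). In FCS and EpiSC medium the medians were 0.12 and 0.06, with 0 members at an unadjusted p below 0.05. Mrpl11, for example, was at 49.0 and 73.2 CPM in knockout and 45.9 and 57.3 CPM in wild-type FCS libraries. Mrps36 was the single member with both knockout below both wild-type libraries in each medium, against 1.44% of all genes.

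The effects of the 3 lines were then compared directly. The Setd1a effect was lower than the Mll2 effect for 11 of 77 members, against 2% of all genes, and higher for none. They were Mrpl11 (a difference of -2.29 ± 0.27 on the log2 scale, edgeR adjusted p = 1.28e-05), Mrpl2 (-1.64 ± 0.31, 3.15e-03), Mrpl24 (-1.27 ± 0.17, 7.20e-05), Mrpl42, Mrpl36, Mrpl51, Mrpl10, Mrps27, Mrps10, Mrps2 and Mrps5. With the block the count was 19. Mrpl51 (-1.01 ± 0.25, 0.0269) lost its call without 9 libraries, with adjusted p of 0.0527 to 0.0693: replicate 1 of Mll2 knockout 2i, Setd1a knockout 2i, Setd1a wild type 2i, Mll2 wild type FCS, Mll2 wild type EpiSC and Setd1a knockout EpiSC, and replicate 2 of Mll2 knockout FCS, Mll2 knockout EpiSC and Setd1a wild type EpiSC. The count was 7 without Mll2 knockout EpiSC replicate 2, Mll2 wild type EpiSC replicate 1, Setd1a knockout 2i replicate 1 or Setd1a wild type EpiSC replicate 2, and 18 without Mll2 wild type 2i replicate 2, where the differences were -2.50 for Mrpl11, -1.91 for Mrpl2 and -1.30 for Mrpl24. The Bod1L effect was lower than the Mll2 effect for Mrpl24 (-0.86 ± 0.17, edgeR adjusted p = 0.0110), against 0.762% of all genes. For Mrpl11 that difference was -1.07 ± 0.27 (0.0552), and with the block both were called. Leaving out either Mll2 wild-type 2i library, Mll2 knockout FCS replicate 1, Bod1L knockout FCS replicate 2 or Bod1L knockout 2i replicate 1 gave a count of 2.

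Between the Bod1L and Setd1a lines no member differed by edgeR, against 0.00426% of all genes. An unadjusted p below 0.05 was found for 18 members, and DESeq2 called 1. The share of all genes is not given for either count. For Mrpl11 the difference was 1.23 ± 0.27 on the log2 scale (edgeR adjusted p = 0.359, and 0.0194 with the block), and with the block Mrps10 passed as well (0.0407). The fold change was lower in the Setd1a than in the Bod1L line for 75 of 77 members. All 3 members called in the Bod1L line, and all 11 called there with the block, were also called in the Setd1a line under the same fit, where they made up 3 of 28 and 11 of 35. The 28 members called with Setd1a loss had their median at -0.89 (log2 fold change) in that line, whose values chose them, and at -0.36 in the Bod1L line, where 27 of them were below 0. Across the 77 members the effects of Bod1L and Setd1a loss, which share no library, correlated with a Pearson r of 0.916, beside 0.701 over the 12244 genes at 5 CPM or more. This is a description over genes, which are not independent and were measured in the same 12 libraries of each line.

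**Figure D3:**
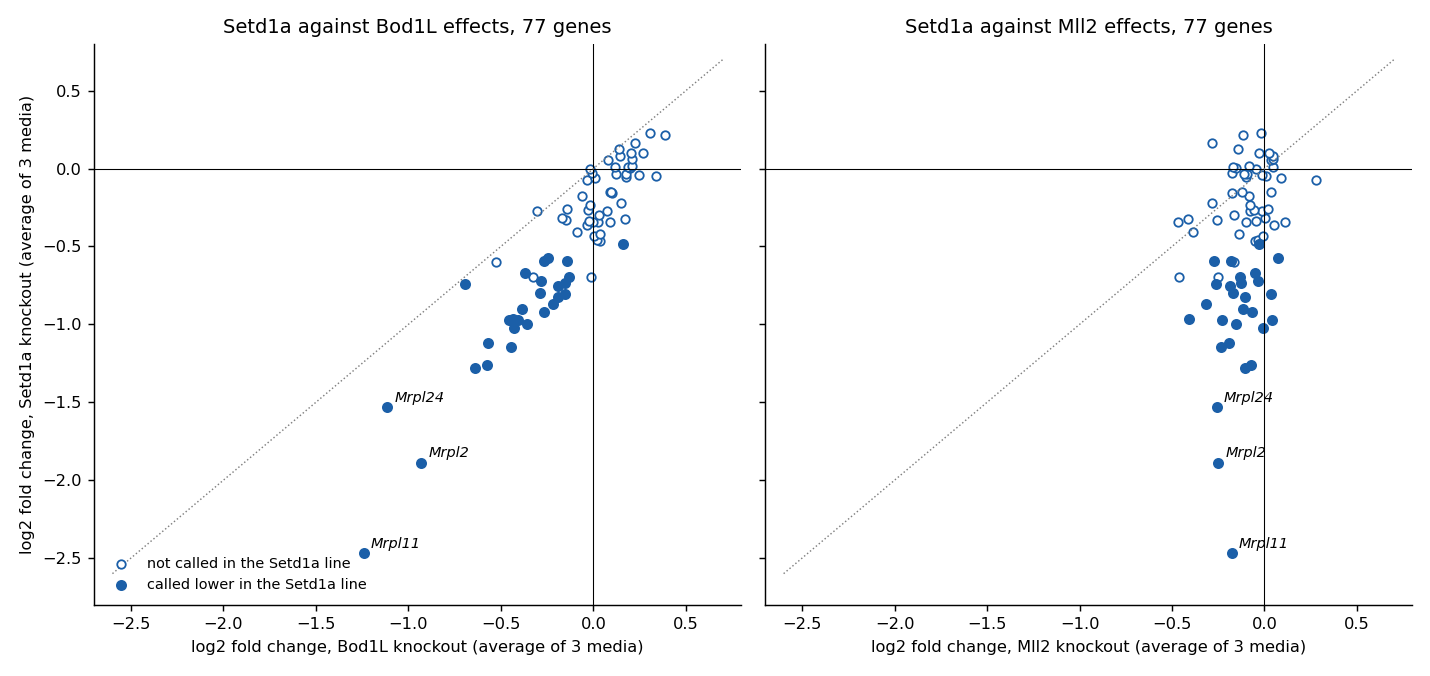
Log2 fold changes of the 77 members, averaged over media, in the Setd1a line (y axis) against the Bod1L line (left x axis) and the Mll2 line (right x axis), 1 point per member, filled where called in the Setd1a line, with a dotted line of equal values. In the left panel 75 of 77 points lie under the dotted line, and Mrpl11, Mrpl2 and Mrpl24 are the lowest 3 points of each panel.

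Summed over all 78 members, the level in Setd1a knockout cells was 72.8% of wild type in 2i, 86.7% in FCS and 65.2% in EpiSC medium. Group sums were 2496 ± 25.4 against 3429 ± 121 CPM, 3239 ± 545 against 3735 ± 24.9 CPM and 2181 ± 199 against 3347 ± 486 CPM (SD, n = 2). Cytosolic ribosomal protein genes summed to 81.2%, 113% and 71.7% of wild type in the same media. Member sums of knockout and wild-type libraries did not overlap in any of the 3 media. In the Bod1L line the sums were 85.8%, 111% and 84.9% of wild type, with knockout libraries below wild type in 2i and EpiSC medium and overlapping in FCS, where knockout replicate 2 was the higher. In the Mll2 line they were 70.4%, 109% and 106%, the 2i value resting on wild type replicate 2. No test was run on sums.

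**Figure D4:**
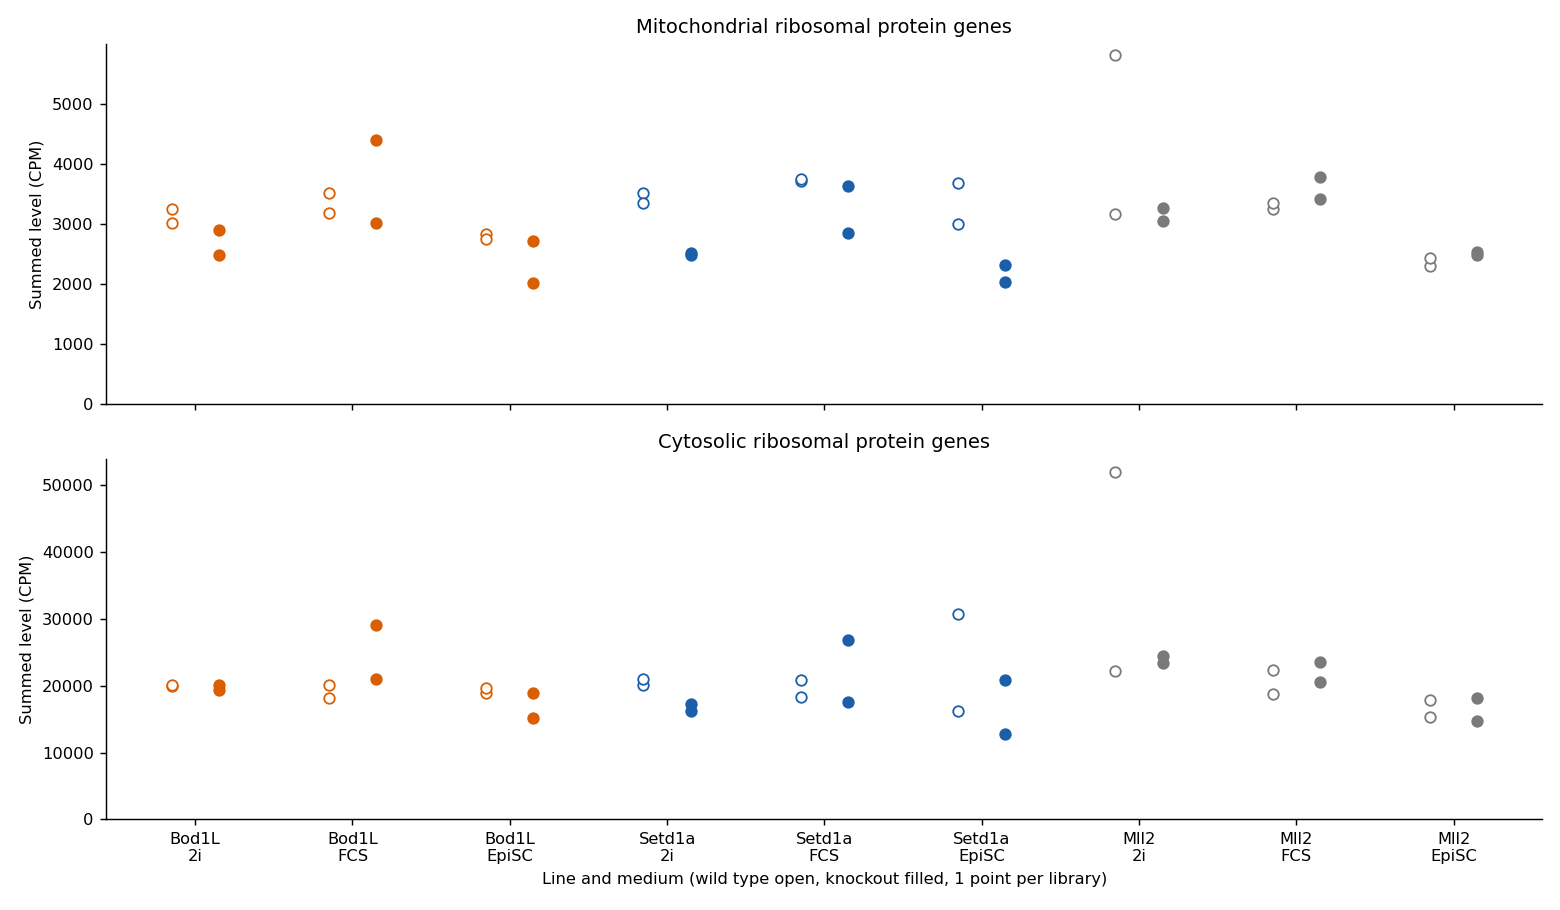
Summed CPM per library of the 78 members (top) and of the cytosolic ribosomal protein genes (bottom), axes from 0, by line and medium, 1 point per library (wild type open, knockout filled). In the top panel Setd1a knockout libraries lie below their wild-type libraries in each medium, and Mll2 wild type 2i replicate 2 at 5805 CPM is the highest of the 36.

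Members of both subunits, and of both evolutionary classes, were among those that fell. With Setd1a loss 20 of 48 tested Mrpl and 8 of 29 Mrps genes fell, with medians of -0.41 and -0.30. Of the 46 with a bacterial counterpart 17 fell (37.0%), and of the 31 tested members found only in mitochondria 11 fell (35.5%). With Bod1L loss the 3 called members were Mrpl genes with bacterial counterparts. No test of these classes against each other was run.

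Proteins of the same ribosome that carry other symbols were measured too. With Setd1a loss Chchd1, of the small subunit, fell by 0.78 ± 0.20 on the log2 scale (edgeR adjusted p = 0.0167). Dap3 (-0.02 ± 0.14), Ptcd3 (-0.03 ± 0.25), Aurkaip1 (-0.39 ± 0.21) and Gadd45gip1 (-0.38 ± 0.28) were not called, and in the Bod1L and Mll2 lines none of the 5 was.

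Genes for other steps of mitochondrial gene expression were measured beside them. Of 21 tested mitochondrial aminoacyl-tRNA synthetase genes and relatives, 10 fell with Setd1a and 8 with Bod1L loss. Of all tested genes 5.57% and 1.92% fell, to be read beside these counts and those of the lists that follow. Gatb, of the amidotransferase that makes glutaminyl-tRNA, had log2 fold changes of -2.85 ± 0.19 with Setd1a and -2.59 ± 0.18 with Bod1L loss (edgeR adjusted p = 8.02e-10 and 4.73e-09). Ears2, for glutamate, was at -2.29 ± 0.19 and -1.85 ± 0.18. Of 15 translation factor genes, 8 and 6 fell, led by Taco1, an activator of cytochrome oxidase synthesis (-2.04 ± 0.19 and -1.53 ± 0.19). Of 26 genes for ribosome assembly and rRNA modification, 13 and 7 fell, among them Tfb1m, which methylates the small rRNA (-2.40 ± 0.23 and -2.04 ± 0.23), Ybey, an endonuclease of rRNA processing (-2.11 ± 0.21 and -1.57 ± 0.20), and the GTPase Mtg1 (-1.51 ± 0.18 and -1.06 ± 0.17). Of 23 genes for transcription and RNA processing in mitochondria, 9 and 5 fell, such as Tefm, the transcription elongation factor (-1.84 ± 0.19 and -0.93 ± 0.18), and Supv3l1, a helicase of RNA decay (-1.73 ± 0.11 and -0.84 ± 0.11). No gene of these lists rose in this fit. With Mll2 loss 1 gene of the 4 lists fell, Gtpbp10 (-0.83 ± 0.18, edgeR adjusted p = 0.0227). The lists were chosen with results of these data known.

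For related groups the shares over all genes with Setd1a loss were again 5.57% lower and 3.29% higher. With Bod1L loss 1.92% of all genes were lower. The share that rose with Bod1L loss, and shares with the block, are not given here. Of 79 cytosolic ribosomal protein genes 1 fell with Setd1a loss (Rpl22l1, -1.88 ± 0.26) and 0 changed in the other lines by edgeR. Of 82 nuclear genes of the respiratory chain 11 fell and 1 rose with Setd1a loss (23 and 3 with the block), with Ndufb3, a complex I subunit, lowest at -0.98 ± 0.19, and none changed with Bod1L loss (3 fell with the block). Of 26 tested genes of the mitochondrial genome 10 rose with Setd1a and 2 with Bod1L loss (13 and 4 with the block), and none fell. Their summed level was 206% of wild type in 2i, 95.7% in FCS and 194% in EpiSC medium with Setd1a loss, and 128%, 85.1% and 191% with Bod1L loss, so that the higher sums were in 2i and EpiSC medium and not in FCS. Among them mt-Nd3 rose by 1.42 ± 0.20 and 0.82 ± 0.19 on the log2 scale, and the rRNA genes mt-Rnr1 and mt-Rnr2 by 1.33 ± 0.33 and 1.05 ± 0.30 with Setd1a loss. Library preparation included poly(A) selection and rRNA removal, and the part of these steps in the rRNA values was not tested. Of 20 genes of the integrated stress response, Slc7a11 (1.59 ± 0.35) and Ddit3 (1.37 ± 0.23) rose with Setd1a loss (6 rose with the block).

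In wild-type cells some members differed between media. Counting both directions, a smaller share of members than of all genes was called in each comparison averaged over the 3 lines. In EpiSC medium 31 of 77 members were lower and 2 higher than in 2i (42.9% called). Of all genes 52.5% were called, 27.4% lower and 25.1% higher. The median over members was -0.36 and over all genes -0.07. Against FCS, 20 were lower and 1 higher (27.3%, beside 41% of all genes, 20.6% lower). Mrpl35 (-1.11 ± 0.23), Mrps18b (-1.05 ± 0.15), Mrpl42 (-0.88 ± 0.17), Mrpl15 (-0.83 ± 0.19) and Mrpl20 (-0.75 ± 0.21) were among the lower. Mrps24 (-0.99 ± 0.29) was not called without Setd1a wild type FCS replicate 2 (edgeR adjusted p = 0.0535), and Mrps6 (0.55 ± 0.18) not without Setd1a wild type EpiSC replicate 2 (0.0787). EpiSC medium and the later library numbers cannot be told apart. All 8 fibroblast markers and 6 of 7 primitive endoderm markers were called higher in it than in 2i. Primitive endoderm markers had a median sum of 104 CPM in EpiSC medium (16.9 to 203), 15.6 in FCS and 12.1 in 2i, and the part of either cell type was not tested. Between FCS and 2i, which share the earlier numbers, 4 members were lower (Mrps28, Mrps2, Mrpl43 and Mrpl17) and 1 higher (Mrpl23), against 27.8% of all genes.

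Mrps2, a bacterial-type protein of the small subunit, stepped down through the media. Its wild-type levels were 104 to 141 CPM in 2i (median 116, n = 6), 71.2 to 85.6 in FCS (median 75.7) and 42.9 to 64.2 in EpiSC medium (median 53.1). The 3 ranges did not overlap, and the log2 differences were -0.61 ± 0.13 for FCS against 2i (edgeR adjusted p = 7.54e-04) and -1.16 ± 0.13 for EpiSC medium against 2i (1.33e-07). Mrpl35, of the large subunit, had 39.4 to 75.6 CPM in 2i (median 49.7), 19.1 to 74.9 in FCS (median 42.4) and 12.6 to 31.7 in EpiSC medium (median 18.6). EpiSC values lay below all 2i values (-1.42 ± 0.23, edgeR adjusted p = 2.39e-05). Mrps18b (-0.85 ± 0.15) and Mrpl18 (-0.84 ± 0.14) were lower in EpiSC medium than in 2i as well. Mrpl23 (0.76 ± 0.21) and Mrps6 (0.51 ± 0.18) were higher, though Mrps6 was not called without Bod1L wild type 2i replicate 2 (0.0696) or Setd1a wild type EpiSC replicate 2 (0.0922).

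**Figure D5:**
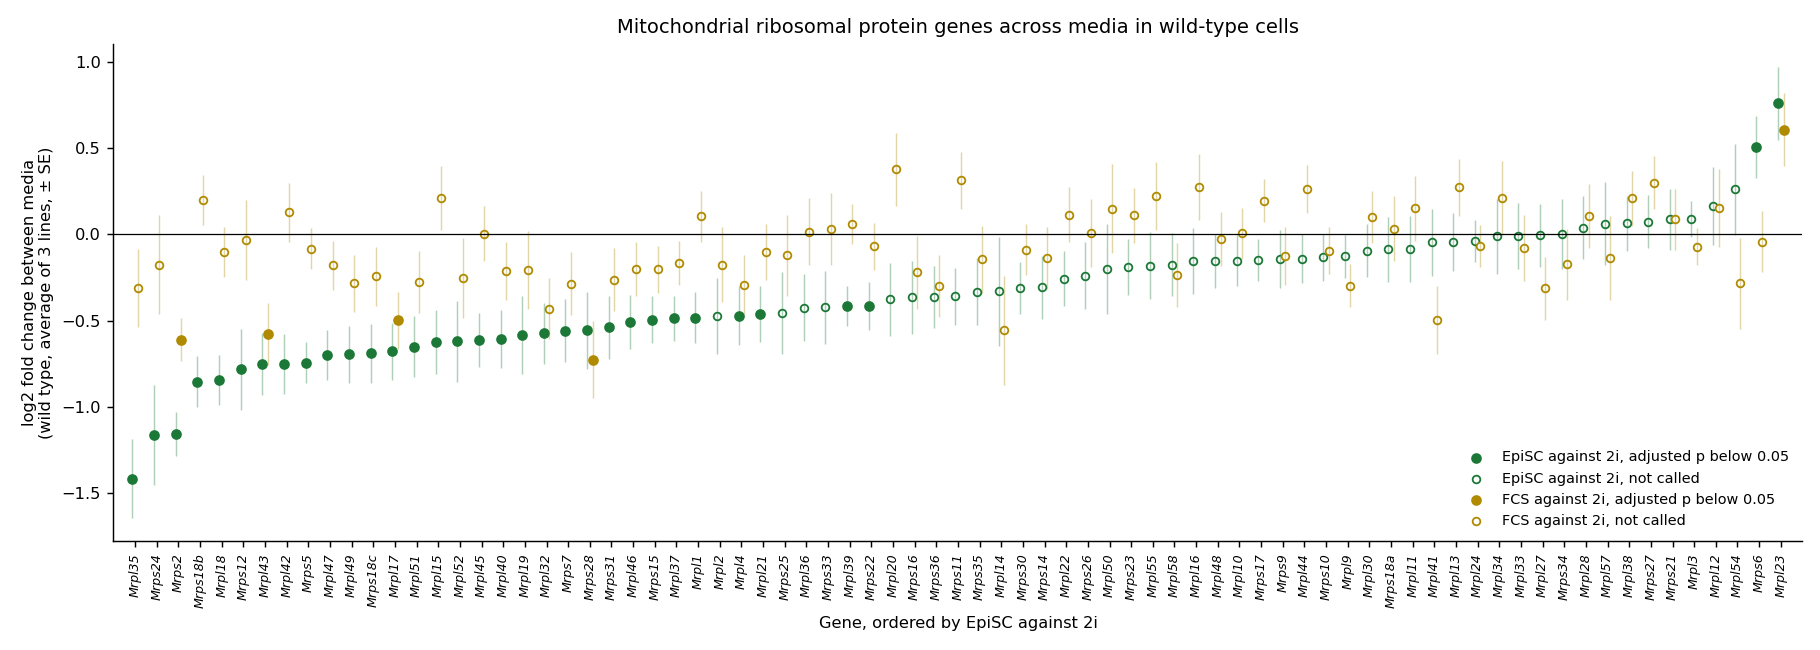
Log2 fold change between media in wild-type cells (average of 3 lines, bars of 1 SE) for each of the 77 tested members, ordered by EpiSC medium against 2i, with FCS against 2i beside it and called members filled. For EpiSC medium against 2i, 31 filled points lie below 0 and 2 above, from Mrpl35 at -1.42 to Mrpl23 at 0.76, and for FCS against 2i 4 lie below and 1 above.

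The high library weighed on the media comparisons. Without Mll2 wild type 2i replicate 2, the count for EpiSC medium against 2i was 20 (18 lower and 2 higher, member median -0.11), Mrps2 was at -1.05, Mrpl18 moved from -0.84 to -0.62, Mrps24 from -1.16 to -0.56 and Mrps12 from -0.78 to -0.42, where it was not called (edgeR adjusted p = 0.105). For FCS against 2i, 1 member was then lower and 6 higher (median 0.12), Mrps2 was at -0.52, Mrps28 was at -0.50 and not called (0.106), Mrpl43 moved from -0.58 to -0.21 (0.212) and Mrpl17 from -0.50 to -0.25 (0.209). In the Mll2 line alone, with fibroblast marker sums of 95.1 to 165 CPM in EpiSC medium, 49 members were lower in EpiSC medium than in 2i, against 20.9% of all genes, and 11 lower than in FCS, against 11.2%. The 49 rest on the high library as 1 of 2 controls. The FCS against 2i count of 5 was small and unstable, going to 3 without Bod1L wild type 2i replicate 2, Bod1L wild type FCS replicate 2, Mll2 wild type FCS replicate 1, Setd1a wild type 2i replicate 1 or Setd1a wild type FCS replicate 2, to 2 without Mll2 wild type FCS replicate 2 or Setd1a wild type FCS replicate 1, and to 1 without Setd1a wild type 2i replicate 2. Mrps2 was the member of the 5 that kept its call in each of these fits.

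Wild-type cells of the 3 lines differed in 5 members (6.49%, beside 14.7% of all genes). Each adjusted p of this paragraph is from an edgeR F test over the 3 lines together, and no pair of lines was tested by itself. Mrpl55 (edgeR adjusted p = 1.80e-03 over the 3 lines) was higher in the Setd1a line than in the Bod1L line by 1.11 on the log2 scale. Its levels were 28.0 to 42.7 CPM against 13.9 to 20.0 CPM, with no overlap. Mrpl38 (edgeR adjusted p = 7.29e-03 over the 3 lines) was at 62.9 to 112 CPM in the Setd1a and 37.7 to 71.3 CPM in the Bod1L line, which overlapped. The others were Mrps24 (0.0122), Mrpl22 (0.0227) and Mrpl10 (0.0345). Mrps24 was not called without Setd1a wild type FCS replicate 2 (0.0651), Mrpl22 without Setd1a wild type replicate 1 of 2i (0.0768), FCS (0.0700) or EpiSC medium (0.0576), and Mrpl10 without any of 8 libraries (0.0574 to 0.107): replicate 1 of Mll2 wild type 2i, FCS and EpiSC and of Setd1a wild type EpiSC, and either replicate of Setd1a wild type 2i and FCS. The count was 3 without Setd1a wild type 2i replicate 1 or either Setd1a wild type FCS library, 9 without Mll2 wild type 2i replicate 2 and 10 without replicate 1.

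Members shared some features of their genes. A protein-coding neighbour started within 1000 bases on the opposite strand for 33 of 78 members (42.3%), beside 10.8% of 21811 protein-coding genes. Only 16731 protein-coding genes passed the filter on low counts, and no share over those alone is given. Mrpl46 and Mrps11 are neighbours of this kind to each other and were left out of the pair counts. Of the 31 pairs with a neighbour that is no member and both genes tested, 11 members and 6 neighbours fell with Setd1a loss and 1 neighbour rose, beside 5.57% of all genes that fell. Both genes fell in 4 pairs: Mrps5 with Zfp661, Mrpl27 with the nuclease gene Eme1, Mrpl36 with the complex I gene Ndufs6, and Mrps27 with Ptcd2. Ndufs6, which starts 29 bases from Mrpl36, fell by 0.82 on the log2 scale (edgeR adjusted p = 0.0204). Klc4, which starts 207 bases from Mrpl2, was at 0.11 (0.828). Other neighbours were called lower where their member was not. They were Cyb5rl (-2.09, edgeR adjusted p = 1.10e-06) beside Mrpl37 at -0.04, and Sars2 (-0.91, 1.79e-04) beside Mrps12 (-0.69, 0.0689). Mrps12 was called with the block. With Bod1L loss 1 member and 2 neighbours of the 31 pairs fell, with both lower in 0 pairs, beside 1.92% of all genes. Members with such a neighbour fell in 11 of 33 and the others in 17 of 44 tested cases.

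Promoter windows of 300 bases (250 before and 50 after the RefSeq start, GRCm38.p6) were found for 69 members. The motif of NRF1 (GCGC, then any base, then TGCGC), a factor that controls many nuclear genes for mitochondria, was in 18.8% of members' windows and 7.46% of those of protein-coding genes. All motifs were searched on both strands. CCGGAAG, bound by ETS factors such as GABPA, was in 37.7% against 13.4%, and AAGATGGC, of YY1, in 17.4% against 3.65%. The E-box CACGTG was in 7.25% against 9.18%, and TATAAA in 7.25% against 14.3%. Of members called with Setd1a loss, 14 of 26 with a window held CCGGAAG, and of the others 12 of 43. For the NRF1 motif these counts were 3 of 26 and 10 of 43, and for AAGATGGC 4 and 8. For the E-box they were 2 and 3, and for TATAAA 1 and 4. No test of these splits was run. None of the 4 stretches printed above held CCGGAAG or the NRF1 motif, and no motif was found in those of Mrpl11 and Mrpl24, which says only that these letters are not in the windows. The median GC content was 58.0% in members and 57.0% in protein-coding genes, and the median count of CpG (C followed by G) was 21 and 14.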

How the data were processed

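Reads were aligned with GSNAP to GRCm38 (mm10) per the submitters' processing notes. The deposited table holds raw gene counts from featureCounts 1.5.2, run by the authors (per the file headers) by strand (setting 2) on Ensembl release 87 models with mapping quality of at least 1. The 92 spike-in lines held 0 counts and were removed. Symbols came from GENCODE M21 by identifier (259 genes without one).

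Counts were fitted with edgeR 4.0.16 in R 4.3.3 (TMM scaling, filterByExpr with a minimum count of 10, trended dispersion, quasi-likelihood tests) as 1 model over all 36 libraries and 23501 genes (18 group means, residual df 18), and p-values were adjusted over all of them. The code was tested on simulated data. Alternatives were RLE size factors, no filter, DESeq2 1.42.0, each library left out, and a replicate block (residual df 9). Replicate numbers were checked for pairing by correlating the knockout replicates' difference with that of the wild type over 12244 genes: r was 0.407 to 0.839 in the 9 line and medium combinations. Labels state no pairing, so it was inferred from these same data.

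Members and lists were chosen with earlier results of these data known. Named are the called members, at most 12 per direction in each averaged knockout comparison and 6 elsewhere, the extremes, the highest and lowest levels, members under the filter, and listed genes called on average. Genes named beyond that rule were chosen after their values were seen. They are single-medium calls past 6, members called only with the block, pairs that fell together, and neighbours called where their member was not.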

Additional observations from a re-analysis of the deposited data

Results flagged for a closer look

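The effects of knockout on 12 member and line combinations differed between lines by a direct test of the difference (edgeR, Benjamini-Hochberg adjusted p below 0.05). The Bod1L effect on Mrpl24 was lower than the Mll2 effect by -0.86 on the log2 scale. The Setd1a effect was lower than the Mll2 effect for 11 members, with differences of -2.29 for Mrpl11, -1.64 for Mrpl2, -1.27 for Mrpl24, -1.19 for Mrpl42, -1.18 for Mrpl36, -1.01 for Mrpl51, -1.01 for Mrpl10, -0.85 for Mrps27, -0.84 for Mrps10, -0.64 for Mrps2 and -0.62 for Mrps5. The knockout libraries of each line were set against wild-type libraries of the same line, so that no library is shared between these effects.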

How the results depend on the processing

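With the replicate block the counts were 2, 1, 4 and 11 for Bod1L loss (2i, FCS, EpiSC medium and average), 22, 9 and 28 for Setd1a loss in the single media, 2 for Bod1L against Setd1a, 2 for Bod1L against Mll2 and 19 for Setd1a against Mll2. DESeq2 gave 2, 1 and 5 for Bod1L loss in 2i, FCS and on average, 6 and 15 for Setd1a loss in FCS and EpiSC medium, 1 and 2 for Bod1L against Setd1a and Mll2, and 11 for the wild-type lines. Without the filter there was 1 for Bod1L loss in EpiSC medium, 1 for Mll2 loss in 2i, 1 for Bod1L against Setd1a, and 3, 21 and 13 for FCS against 2i, EpiSC medium against 2i and EpiSC medium against FCS. Averaging 2i and FCS only gave 15 for Setd1a loss, and the Mll2 line alone gave 11 for EpiSC medium against FCS (both chosen after seeing the data). Leaving out 1 library gave 0 to 1 (2i), 0 (FCS), 0 to 2 (EpiSC) and 2 to 5 (average) for Bod1L loss, 2 to 10, 0 to 4, 2 to 15 and 18 to 30 for Setd1a loss, and 0 to 22, 0, 0 and 0 to 1 for Mll2 loss. It gave 0 to 1 for Mll2 effects between media, 0 for Bod1L against Setd1a, 1 to 2 for Bod1L against Mll2, 7 to 18 for Setd1a against Mll2, 1 to 7 (at 7, 6 were higher), 20 to 42 and 16 to 26 for the media in that order, and 3 to 10 for the wild-type lines. Mrps24 with Mll2 loss ranged from -0.70 to 0.11 over these fits, turning from -0.47 to 0.11 without Mll2 wild type 2i replicate 2. Of named members, 66 of 68 kept call and direction with RLE size factors, 57 without the filter, 68 with DESeq2 and 43 of 43 with the block. The share of all genes is not given beside the counts of this section. Causes were not tested.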
